A study of Homo sapiens with 13 samples.

Results

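The 42 genes described here form the zinc finger cluster at the far end of the long arm of chromosome 19, from ZNF470 on the centromere side to ZSCAN22 on the telomere side. They were taken by symbol from a list selected on expression values of these tumours, and the bulk difference between the KMT5C and CTRL tumours is treated here as what chose them. Of the 42 genes, 41 had an identifier among the 57820 of the bulk table and 36 were among the 15005 genes of the single-cell table. ZNF8 had no bulk identifier under its symbol, and ZNF835, ZNF773, ZIK1, ZNF154, ZNF256 and ZNF135 were not in the single-cell table, whose genes were all counted in at least 20 cells.

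Most zinc finger proteins of this kind carry a row of fingers that read DNA letters and, in many of them, a KRAB domain at the front end. The KRAB domain recruits TRIM28 (KAP1), which brings the histone H3 lysine 9 methyltransferase SETDB1 and heterochromatin proteins to the bound site. KMT5C (SUV420H2) trimethylates histone H4 at lysine 20, a mark that lies next to H3 lysine 9 trimethylation in heterochromatin. Zinc finger gene clusters of chromosome 19 are known to carry H3 lysine 9 trimethylation themselves, placed in part by ZNF274, 1 of the members.

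All samples were xenografts of BM1 cells, a bone-seeking derivative of the human triple-negative breast cancer line MDA-MB-231, grown in nude mice from 1000000 cells injected into the mammary fat pad. In bulk, 5 tumours of cells transduced with human KMT5C by lentivirus were set against 5 tumours of vector control cells, all collected after 4 weeks. In single cells, 3 tumours of cells carrying the S153E form of RKIP (PEBP1) were set against 3 tumours of vector control cells, collected after 3 weeks, with mouse and dead cells depleted before capture on a Fluidigm C1 chip. The labels describe selected stable cells and say nothing of clones, so that a difference between the cell populations that came before the transgene cannot be told apart from its effect, and they give no age of the mice.

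The bulk libraries held 37050750 to 49536763 counts (KMT5C) and 41665268 to 48003278 counts (CTRL). KMT5C itself was at 99.8, 141.4, 120.8, 145.2 and 107.1 CPM (counts per 1000000 of the scaled library) in the KMT5C tumours, against 7.16, 8.82, 11.2, 7.91 and 9.20 CPM in the CTRL tumours, so its arms lay far apart. VIM, CD44, EGFR, CAV1, AXL and MSN, present in MDA-MB-231 cells, summed to 10592 to 14210 CPM in the KMT5C tumours and 10058 to 12204 CPM in the CTRL tumours, with MSN called higher in the KMT5C tumours (log2 fold change 0.43). Of the genes low in these cells, ESR1, PGR and CDH1 each averaged under 1 CPM in both arms, EPCAM 9.21 CPM in the KMT5C tumours and 9.68 CPM in the CTRL tumours, and ERBB3 6.67 CPM in the KMT5C tumours and 6.04 CPM in the CTRL tumours. Bulk RNA also held other cells, and fewer cells of a type and less RNA per cell cannot be told apart there. Skeletal muscle markers moved with the arms. Of 13 listed, 12 had a bulk identifier and 10 passed the low-count filter. Of these 10, 6 were called higher (60%, where 1.06% of all genes were) and 0 lower, with a median log2 fold change of 1.08. The 12 had a summed level of 28.99 to 55.8 CPM in the KMT5C tumours and 13.6 to 25.4 CPM in the CTRL tumours, and MYBPC2 and MYL1 averaged under 1 CPM. The 8 leukocyte markers, of which 5 passed, summed to 109.8 to 147.6 CPM in the KMT5C tumours and 150.5 to 192.1 CPM in the CTRL tumours. Of 6 endothelial markers, the 5 with a bulk identifier, of which 4 passed, summed to 39.2 to 64.8 CPM in the KMT5C tumours and 56.1 to 82.5 CPM in the CTRL tumours. Called lower were 1 leukocyte and 1 endothelial marker, with 0 called higher, where 1.9% of all genes were called lower. The part of these markers in the results below was not tested. A fit that holds the muscle level as a term is given below, but it cannot tell muscle level and arm apart. The mean log2 CPM of the 10 muscle markers was 0.98 to 1.92 in the KMT5C tumours and -0.16 to 0.86 in the CTRL tumours.

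Promoters of the cluster shared stretches of sequence. The promoters of 6 members are shown because 4 of them belong to the members called higher in the KMT5C tumours, 1 to the member with the lowest fold change and 1 to a member with no count in bulk. Each is the window from 250 bases before to 50 bases after the RefSeq start on GRCh38.p14, read 5′ to 3′ on the strand of the gene, so that base 251 of the window is the start. Capitals mark 2 runs of 11 letters. GGCGGGACTTC is the most frequent run of this length in the members' windows, and ACTACATTACC is the next that shares no 6 letters in a row with it, both searched on either strand. The windows lie at chr19:57363301-57363600 (plus strand) for ZNF547, chr19:57559814-57560113 (minus) for ZNF550, chr19:57613992-57614291 (plus) for ZNF134, chr19:57746565-57746864 (plus) for ZNF776, chr19:57709155-57709454 (minus) for ZNF154 and chr19:58058989-58059288 (plus) for ZNF135.
ZNF547: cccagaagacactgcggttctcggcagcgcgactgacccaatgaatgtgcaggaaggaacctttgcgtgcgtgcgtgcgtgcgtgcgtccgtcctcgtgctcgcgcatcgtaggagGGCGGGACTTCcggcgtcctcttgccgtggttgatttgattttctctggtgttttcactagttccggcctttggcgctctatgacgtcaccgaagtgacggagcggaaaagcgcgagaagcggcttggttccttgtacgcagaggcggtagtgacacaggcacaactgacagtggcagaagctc
ZNF550: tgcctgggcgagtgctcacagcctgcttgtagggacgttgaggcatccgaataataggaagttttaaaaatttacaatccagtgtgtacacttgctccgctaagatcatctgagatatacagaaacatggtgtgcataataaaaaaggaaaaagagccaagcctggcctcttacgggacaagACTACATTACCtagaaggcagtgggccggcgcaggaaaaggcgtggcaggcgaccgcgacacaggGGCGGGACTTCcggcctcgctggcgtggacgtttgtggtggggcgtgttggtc
ZNF134: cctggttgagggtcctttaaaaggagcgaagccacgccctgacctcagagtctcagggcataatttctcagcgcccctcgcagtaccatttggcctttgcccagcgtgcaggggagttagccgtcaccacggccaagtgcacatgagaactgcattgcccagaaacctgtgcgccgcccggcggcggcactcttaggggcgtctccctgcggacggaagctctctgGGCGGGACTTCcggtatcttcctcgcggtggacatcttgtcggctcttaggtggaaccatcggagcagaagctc
ZNF776: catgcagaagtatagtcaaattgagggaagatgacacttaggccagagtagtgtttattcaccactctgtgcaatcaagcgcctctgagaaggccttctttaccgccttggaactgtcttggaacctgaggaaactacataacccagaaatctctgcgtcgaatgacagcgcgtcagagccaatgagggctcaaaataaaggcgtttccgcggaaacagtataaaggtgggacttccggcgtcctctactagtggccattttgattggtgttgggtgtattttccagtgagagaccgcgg
ZNF154: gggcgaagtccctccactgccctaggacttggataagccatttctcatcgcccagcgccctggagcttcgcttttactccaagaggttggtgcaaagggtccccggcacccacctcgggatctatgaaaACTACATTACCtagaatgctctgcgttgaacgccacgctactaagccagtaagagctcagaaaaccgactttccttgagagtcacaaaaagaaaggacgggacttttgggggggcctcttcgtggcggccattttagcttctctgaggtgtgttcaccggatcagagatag
ZNF135: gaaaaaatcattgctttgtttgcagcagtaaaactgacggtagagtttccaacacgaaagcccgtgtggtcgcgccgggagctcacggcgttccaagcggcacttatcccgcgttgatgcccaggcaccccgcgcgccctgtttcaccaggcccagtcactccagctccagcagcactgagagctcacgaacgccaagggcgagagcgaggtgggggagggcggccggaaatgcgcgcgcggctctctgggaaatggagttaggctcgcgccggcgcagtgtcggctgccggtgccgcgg

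RefSeq windows were matched for 39 of the 42 members, with none for ZNF211, ZNF552 and ZNF417. GGCGGGACTTC was in 14 of the 39 (35.9%), against 2 of 193 windows of other chromosome 19 zinc finger genes (1.04%) and 120 of all 35116 windows (0.342%). Its 14 matches were all on the strand of the gene and ended a median of 7 bases before the start, with that of ZNF547 furthest away and several reaching across the start, as in ZNF550. ACTACATTACC was in 12 of the 39 (30.8%), against 1 of 193 (0.518%) and 18 of 35116 (0.0513%). Its 13 matches were likewise all on the strand of the gene and further out, ending 57 to 135 bases before the start. Since both runs were picked for being common among the members, and many neighbouring members are related by duplication, these shares describe the cluster and are no test.

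Either run was in 21 of the 39 windows, and 5 members, ZNF550 among them, had both. Of the 4 members called higher in bulk, 3 held GGCGGGACTTC and 1 held ACTACATTACC, while ZNF776 had neither. The 14 tested members with GGCGGGACTTC had a median bulk log2 fold change of 0.31 (range -0.06 to 0.62), against 0.25 (range -0.50 to 0.54) for 21 without it. With ACTACATTACC the median was 0.34 over 12 members, ZNF154 at -0.50 included, against 0.21 over 23 without it. For this run the ranges were -0.50 to 0.49 with it and -0.06 to 0.62 without it. The ranges overlapped in both cases. The windows were also rich in CG dinucleotides, with a median of 21 (range 11 to 36) over the members, 20 over other chromosome 19 zinc finger genes and 14 over all windows. The CCAAT box, searched as its 5 letters on either strand, was in 64.1% of the members' windows, 51.3% of those of other chromosome 19 zinc finger genes and 34.6% of all windows. The GC box, searched as GGGCGG, which can overlap the first run, was in 64.1%, 67.4% and 45% of the same sets. The TATA box, searched as TATAAA, was in 2.56%, 2.07% and 11.5%. A match is a description of letters and not a binding site.

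The cluster as a group lay higher in the KMT5C tumours. Of the 38 members that passed the low-count filter, 34 had a log2 fold change above 0 (89.5%, with 50.5% of all genes tested above 0), and the median was 0.27 (quartiles 0.14 and 0.37) with 0.00 over all 17947 genes tested. This is a modest shift, the largest value being 0.62. At an edgeR adjusted p under 0.05, 4 members were called higher (10.5%) and 0 lower, where 1.06% of all genes were called higher and 1.9% lower (2.96% in either direction). The 5 KMT5C tumours all lay above the 5 CTRL tumours for 4 members, ZNF304, ZNF547, ZNF550 and ZSCAN22, where 2.44% of all genes were separated that way and 3.26% the other way. At an unadjusted p under 0.05, 21 members were higher and 0 lower, where 7.51% of all genes were higher and 9.26% lower. These calls changed when 1 tumour was left out, which also makes its arm smaller. Called were 0 members without KMT5C tumour 807, 809 or 816 or CTRL tumour 803, and 1 without KMT5C tumour 820 or CTRL tumour 804. Without CTRL tumour 813 or 815 there were 2, and without CTRL tumour 801 there were 9. The median stayed between 0.21 and 0.30. With muscle marker level added to the fit, 0 members were called and the median was 0.32. Muscle level did not overlap between the arms, so that fit cannot tell the 2 apart. Because the members were chosen on this contrast, these counts describe the list and are no independent evidence of its direction. The summed level of the 41 members with a bulk identifier was 490.2 to 571.3 CPM in the KMT5C tumours and 430.3 to 485.3 CPM in the CTRL tumours. In the plot of fold changes in chromosomal order, values above 0 run along the whole cluster from ZNF264 on, with the exceptions ZNF773 and ZNF154.

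**Figure D1:**
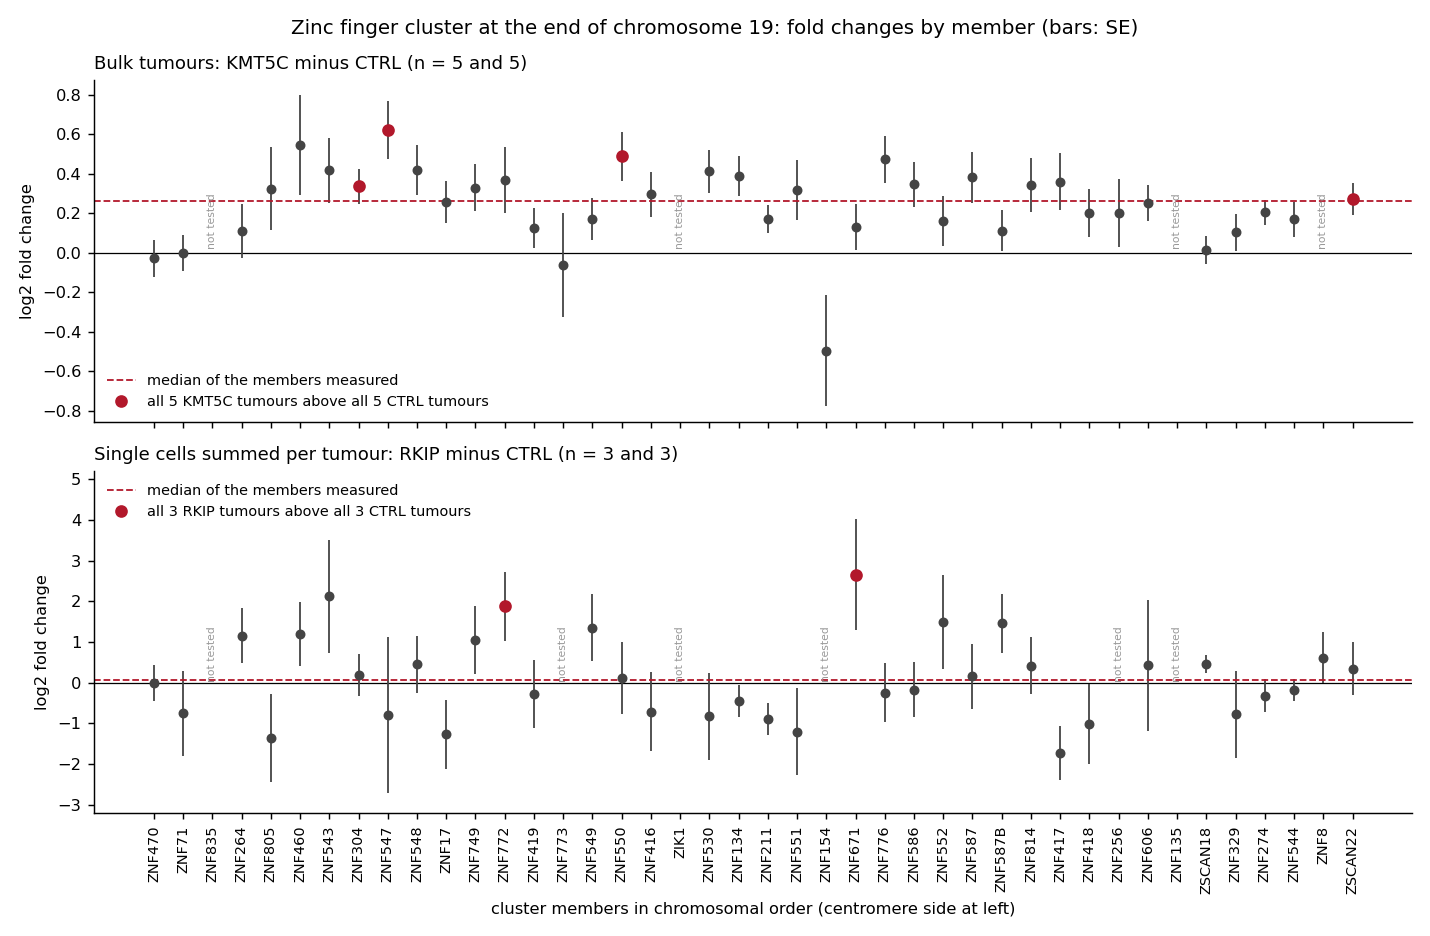
Log2 fold change of each of the 42 members in chromosomal order, bulk KMT5C minus CTRL tumours (upper panel, n = 5 each) and single-cell RKIP minus CTRL tumours (lower panel, n = 3 each). Points are edgeR estimates with SE bars, the dashed line is the median (0.27 in bulk, 0.06 in single cells), red points are members whose arms do not overlap, and grey text marks members not tested.

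Tumours differed in the level of the cluster. As the mean over the 38 members of log2(CPM + 0.1) minus the CTRL mean, the level was 0.27, 0.30, 0.31, 0.25 and 0.09 in KMT5C tumours 807, 809, 816, 820 and 823, against 0.13, -0.08, -0.16, 0.01 and 0.10 in CTRL tumours 801, 803, 804, 813 and 815. KMT5C tumour 823 thus lay below CTRL tumours 801 and 815, while the other 4 KMT5C tumours were above every CTRL tumour. Above the CTRL mean were 33, 35, 34, 32 and 28 of the 38 members in the KMT5C tumours, against 27, 13, 11, 22 and 28 in the CTRL tumours. Tumour 823 was the lowest KMT5C tumour for 25 of the 38 members (65.8%), and it was also the lowest for 34.1% of all genes tested. CTRL tumour 804 was the lowest of its arm for 19 members (50%, against 25.1% of all genes), and CTRL tumour 801 the highest for 15 (39.5%, against 25.9%). A single tumour of each arm was thus lowest for many members at once. This order was not particular to the cluster. The level over other chromosome 19 zinc finger genes was -0.08 in tumour 823, -0.09 in CTRL 804 and 0.06 in CTRL 801. Over zinc finger genes on other chromosomes it was -0.16, -0.09 and 0.07 in the same tumours. In both sets these were again the lowest KMT5C, lowest CTRL and highest CTRL tumour. Without tumour 823, 6 members were called higher, and the median over the 38 was 0.29. KMT5C itself, at 107.1 CPM, was the second lowest of its arm in tumour 823, and lowest, at 99.8 CPM, in tumour 807, where the cluster mean was 0.27.

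**Figure D2:**
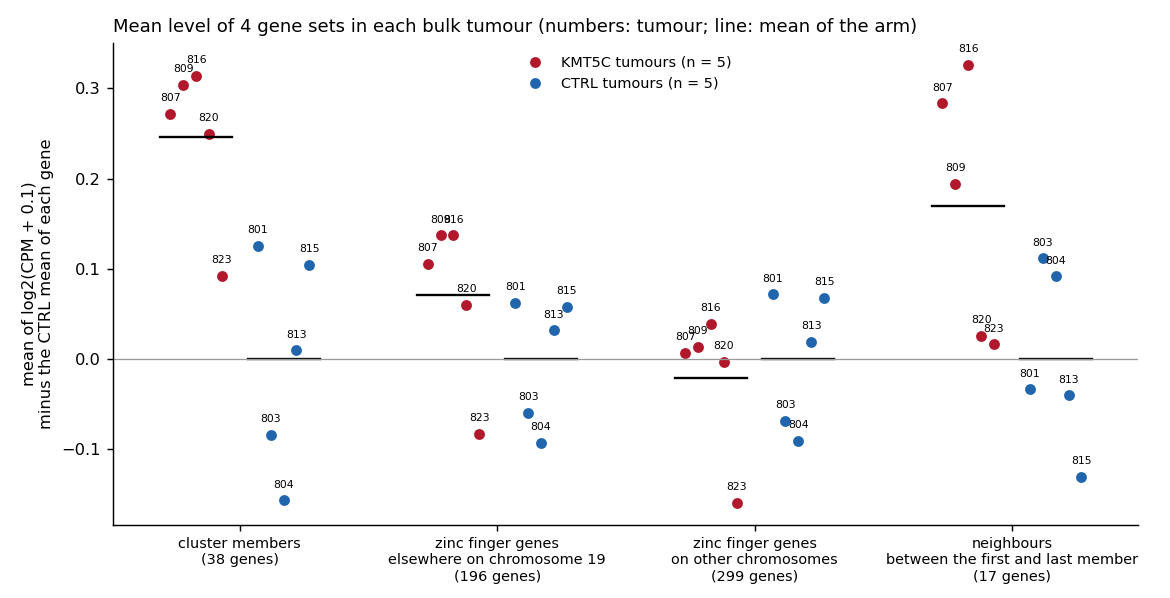
Mean of log2(CPM + 0.1) minus the CTRL mean of each gene, over 4 gene sets, with 1 numbered point per bulk tumour and a line at the mean of each arm (KMT5C in red at left, CTRL in blue at right). For the cluster members 4 of 5 KMT5C tumours lie above all CTRL tumours, and tumour 823 lies at 0.09.

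Among single members, ZNF547, a KRAB zinc finger gene of little known function, had the largest fold change. Its level was 6.42, 7.60, 6.79, 4.51 and 4.85 CPM in KMT5C tumours 807, 809, 816, 820 and 823, against 4.16, 3.73, 4.23, 3.33 and 4.09 CPM in CTRL tumours 801, 803, 804, 813 and 815; the tumours are given in this order throughout. The arms did not overlap, although tumours 820 and 823 were close to the CTRL range, and the log2 fold change was 0.62 (SE 0.15). In the GENCODE 29 transcripts, 7.16% of its 50-base windows also occur in a transcript annotated as another gene, AC003002.1, so that some of its reads may be shared.

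ZNF550, also of the KRAB type, was at 11.05, 12.3, 11.9, 10.996 and 10.5 CPM in the KMT5C tumours, against 9.40, 6.89, 5.97, 9.30 and 8.85 CPM in the CTRL tumours. Its arms were separate and the KMT5C tumours were close together, with a log2 fold change of 0.49 (SE 0.12). ZNF304, which is known for recruiting TRIM28 and DNA methylation to silence tumour suppressor genes in colorectal cancer cells, was at 20.03, 20.6, 21.8, 22.9 and 19.2 CPM in the KMT5C tumours, against 18.5, 15.9, 13.7, 17.1 and 17.6 CPM in the CTRL tumours. The lowest KMT5C tumour, 823, was just above the highest CTRL tumour, 801. Its log2 fold change was 0.34 (SE 0.089). ZSCAN22, the last gene of the cluster, carries a SCAN domain, which pairs such proteins with each other. It was at 14.02, 15.1, 15.4, 14.6 and 15.3 CPM in the KMT5C tumours, against 13.6, 11.7, 11.1, 12.5 and 12.6 CPM in the CTRL tumours. Tumour 823, low for most members, was not low here, and the log2 fold change was 0.27 (SE 0.080).

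ZNF776 and ZNF134 had larger fold changes than ZNF304 but overlapping arms. ZNF776 was at 24.5, 22.0, 24.6, 22.6 and 17.9 CPM in the KMT5C tumours, against 18.5, 14.7, 12.3, 15.6 and 19.2 CPM in the CTRL tumours (log2 fold change 0.48, SE 0.12). Only tumour 823 fell within the CTRL range. ZNF134, described because it was called and so chosen after its values were seen, was at 27.7, 27.0, 24.97, 29.8 and 23.7 CPM in the KMT5C tumours, against 23.9, 17.6, 17.4, 22.2 and 20.6 CPM in the CTRL tumours (log2 fold change 0.39, SE 0.099). Again tumour 823 alone lay within the CTRL range, just under tumour 801. ZNF460 had the second largest fold change, 0.54, but with an SE of 0.25. Its KMT5C tumours were at 2.69, 6.34, 3.26, 3.37 and 3.92 CPM, against 3.04, 1.60, 1.78, 3.10 and 3.84 CPM in the CTRL tumours, so that 1 tumour, 809, stood above the rest and the arms overlapped widely.

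ZNF587 and ZNF417, related members whose proteins bind and repress the HERVK family, share 30.5% of the 50-base windows of ZNF417 and 18.1% of those of ZNF587, so that the division of reads between them is uncertain. ZNF587 was at 30.6, 30.5, 33.1, 32.1 and 25.6 CPM in the KMT5C tumours, against 30.9, 20.3, 16.9, 22.8 and 25.6 CPM in the CTRL tumours. CTRL tumour 801 reached the KMT5C level, and the log2 fold change was 0.38 (SE 0.13). ZNF417 was at 8.10, 8.09, 8.94, 9.16 and 5.96 CPM in the KMT5C tumours, against 7.55, 5.33, 4.84, 6.20 and 7.42 CPM in the CTRL tumours. Its arms overlapped through tumour 823, with a log2 fold change of 0.36 (SE 0.14).

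The members with the highest level per kilobase had log2 fold changes of 0.01 to 0.21. Per kilobase of GENCODE 29 exon, ZNF274 came first in the CTRL tumours with 8.60 CPM, then ZNF211 with 7.71, ZSCAN18 with 5.64 and ZNF544 with 4.90 CPM per kilobase. ZNF274, which holds SCAN and KRAB domains and marks the 3′ ends of zinc finger genes with SETDB1, was at 83.5, 86.4, 84.6, 83.5 and 75.8 CPM in the KMT5C tumours, against 67.0, 73.3, 69.0, 77.0 and 72.3 CPM in the CTRL tumours. The other 4 KMT5C tumours lay close together above the CTRL range and 823 fell inside it, with a log2 fold change of 0.21 (SE 0.064). ZNF211 was at 31.0, 30.7, 28.5, 27.1 and 25.9 CPM in the KMT5C tumours, against 25.1, 24.8, 25.7, 25.6 and 26.1 CPM in the CTRL tumours. Its CTRL tumours were nearly equal, and again only 823 overlapped them (log2 fold change 0.17, SE 0.072). ZNF544 was at 43.3, 39.8, 43.0, 35.3 and 35.2 CPM in the KMT5C tumours, against 35.6, 36.8, 38.6, 29.3 and 34.4 CPM in the CTRL tumours, with a log2 fold change of 0.17 (SE 0.089) and overlapping arms. ZSCAN18, a SCAN zinc finger gene whose promoter is often methylated in digestive tract cancers, was at 46.9, 48.5, 51.1, 43.7 and 45.9 CPM in the KMT5C tumours, against 41.8, 47.7, 49.3, 50.03 and 45.2 CPM in the CTRL tumours. The arms of ZSCAN18 covered the same range (log2 fold change 0.01, SE 0.072).

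**Figure D3:**
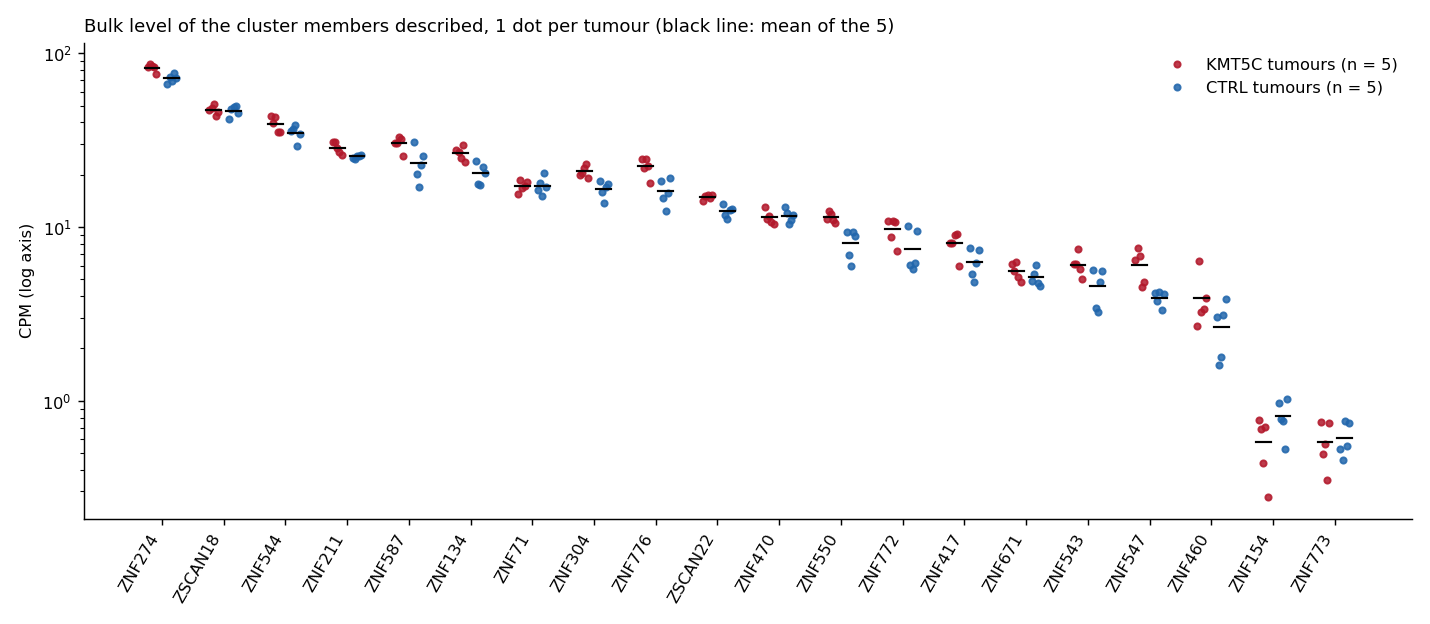
Level in CPM (log axis) of 20 described members in each bulk tumour, sorted by CTRL level, with KMT5C tumours in red at left, CTRL tumours in blue at right and a black line at the mean of each arm. The arms separate by small steps for ZNF547, ZNF550, ZNF304 and ZSCAN22, and ZNF154 and ZNF773 lie under 1 CPM on average.

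At the centromere end, the first 2 genes of the cluster had log2 fold changes near 0. ZNF470 was at 13.1, 11.1, 11.5, 10.7 and 10.4 CPM in the KMT5C tumours, against 13.1, 11.96, 10.4, 10.9 and 11.6 CPM in the CTRL tumours (log2 fold change -0.03, SE 0.093). ZNF71 was at 15.4, 18.7, 16.9, 17.3 and 18.3 CPM in the KMT5C tumours, against 16.4, 17.8, 15.1, 20.3 and 16.9 CPM in the CTRL tumours, averaging 17.3 ± 1.28 CPM and 17.3 ± 1.96 CPM (SD, n = 5 each). Both pairs of arms covered the same range. ZNF543 and ZNF772, further in, had log2 fold changes of 0.42 (SE 0.16) and 0.37 (SE 0.17). ZNF543 was at 6.09, 6.15, 7.43, 5.73 and 4.99 CPM in the KMT5C tumours, against 5.68, 3.42, 3.24, 4.83 and 5.57 CPM in the CTRL tumours. ZNF772 was at 10.8, 8.77, 10.9, 10.7 and 7.31 CPM in the KMT5C tumours, against 10.1, 6.07, 5.76, 6.20 and 9.43 CPM in the CTRL tumours. For both genes the overlap came from KMT5C tumour 823, in ZNF772 also from 809, and from CTRL tumours 801 and 815, which were high. Split by position, the median log2 fold change was 0.33 over 13 tested members from ZNF470 to ZNF419, 0.30 over 13 from ZNF773 to ZNF552 and 0.20 over 12 from ZNF587 to ZSCAN22. By strand it was 0.32 over 25 members on the plus strand and 0.20 over 13 on the minus strand.

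Of the members known as methylated genes in cancer, ZNF154 was low and ZNF135 silent, while ZNF671 and ZSCAN18 were expressed. ZNF154, a KRAB zinc finger gene whose promoter is methylated in many tumour types, was at 0.775, 0.683, 0.436, 0.703 and 0.278 CPM in the KMT5C tumours, against 0.974, 0.780, 0.760, 0.524 and 1.02 CPM in the CTRL tumours. It had the lowest fold change of the members, -0.50 (SE 0.28), with overlapping arms, and was the clearest exception to the direction of the group. ZNF773 was at 0.754, 0.492, 0.560, 0.351 and 0.742 CPM in the KMT5C tumours, against 0.528, 0.455, 0.760, 0.547 and 0.739 CPM in the CTRL tumours (log2 fold change -0.06, SE 0.26). ZNF773 also shares 8.69% of its 50-base windows with the more abundant ZNF419. ZNF671, reported as a methylated tumour suppressor gene in cervical cancer, was expressed at 6.14, 5.60, 6.29, 5.17 and 4.801 CPM in the KMT5C tumours, against 4.87, 5.35, 6.04, 4.77 and 4.58 CPM in the CTRL tumours (log2 fold change 0.13, SE 0.12). ZNF135 and ZNF835 had 0 counts in all 10 bulk tumours, which allows a level of up to 0.0608 to 0.0819 CPM in a tumour at 3 counts. ZIK1 averaged 0.0321 CPM in the KMT5C tumours and 0.0268 CPM in the CTRL tumours, and with ZNF135 and ZNF835 did not pass the filter. The 5 members under 1 CPM in the CTRL tumours had a median of 29 CG dinucleotides in their promoter window (range 14 to 32), against 20 (range 11 to 36) over 33 members at 1 CPM or more. With 5 genes and overlapping ranges this is a description only.

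The remaining 18 tested members, not named so far with values, lay between a log2 fold change of 0.10 (ZNF329) and 0.42 (ZNF548). ZNF548 was at 11.1, 10.99, 11.2, 10.7 and 9.69 CPM in the KMT5C tumours, against 10.4, 6.50, 6.23, 8.78 and 8.25 CPM in the CTRL tumours. ZNF530 was at 9.69, 9.65, 9.07, 10.3 and 7.75 CPM in the KMT5C tumours, against 6.98, 6.33, 7.38, 6.02 and 8.18 CPM in the CTRL tumours. In both genes 4 KMT5C tumours were above every CTRL tumour and 823 was lowest. These genes and the 7 that follow were chosen after their values were seen.

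A further 6 members shared this order, with 4 KMT5C tumours above every CTRL tumour. For ZNF749 the KMT5C tumours were at 9.26, 8.04, 9.42, 9.40 and 6.91 CPM, against 7.37, 6.22, 5.56, 7.55 and 7.58 CPM in the CTRL tumours, with a log2 fold change of 0.33 (SE 0.12). ZNF549 was at 12.99, 13.4, 12.95, 12.6 and 11.5 CPM in the KMT5C tumours, against 12.2, 10.9, 8.47, 12.3 and 12.4 CPM in the CTRL tumours, and its log2 fold change was 0.17 (SE 0.105). ZNF606 was at 11.8, 12.3, 13.1, 11.5 and 9.65 CPM in the KMT5C tumours, against 9.64, 9.95, 9.38, 9.42 and 10.6 CPM in the CTRL tumours, and its log2 fold change was 0.25 (SE 0.093). In these 3 genes tumour 823 was the lowest KMT5C tumour and lay inside the CTRL range. For ZNF416 the KMT5C tumours were at 5.69, 7.22, 6.58, 7.07 and 6.96 CPM, against 5.18, 6.05, 5.34, 6.18 and 4.53 CPM in the CTRL tumours, with a log2 fold change of 0.30 (SE 0.11). ZNF586 was at 6.42, 7.02, 7.28, 7.52 and 6.82 CPM in the KMT5C tumours, against 6.72, 4.88, 4.93, 6.09 and 4.92 CPM in the CTRL tumours, and its log2 fold change was 0.35 (SE 0.11). For ZNF552 the KMT5C tumours were at 5.10, 4.97, 5.87, 4.18 and 4.92 CPM, against 4.91, 4.36, 4.76, 3.53 and 4.83 CPM in the CTRL tumours, with a log2 fold change of 0.16 (SE 0.13). Here the low KMT5C tumour was another, 807 for ZNF416 and ZNF586 and 820 for ZNF552, and tumour 823 lay above all CTRL tumours. For ZNF814 the KMT5C tumours were at 14.4, 12.8, 13.6, 9.53 and 9.39 CPM, against 8.81, 9.69, 11.8, 8.25 and 8.46 CPM in the CTRL tumours, with a log2 fold change of 0.34 (SE 0.14). For ZNF814, by contrast with most members, CTRL tumour 804 was the highest of its arm. The other 9 tested members had log2 fold changes of 0.10 to 0.33 and overlapping arms. Over all 38, there were 14 members with 4 of 5 KMT5C tumours above every CTRL tumour (3.47% of all genes tested), 5 with 3, 6 with 2, 5 with 1 and 4 with 0. The median coefficient of variation within an arm was 10.3% in the KMT5C tumours and 13.0% in the CTRL tumours, close to the 11.9% and 13.6% of all genes.

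Genes around the cluster were examined to see how far the shift reached. Inside its limits lay 17 tested genes that were no members, many of them transcripts without a gene name, with a median log2 fold change of 0.17, 13 of 17 above 0 and 0 called. Of these, ERVK3-1, named after its values were seen, an endogenous retroviral gene next to ZNF8, averaged 20.5 ± 1.55 CPM in the KMT5C tumours and 16.98 ± 1.51 CPM in the CTRL tumours (SD, n = 5 each), with a log2 fold change of 0.27 (SE 0.084) and overlapping arms. Between ZSCAN22 and the chromosome end, 25 tested genes had a median of 0.18, 22 of 25 above 0 and 0 called. TRIM28, the partner of KRAB domains, is 1 of them and averaged 587.5 ± 29.5 CPM in the KMT5C tumours and 593.4 ± 70.2 CPM in the CTRL tumours (log2 fold change -0.01, SE 0.084). On the centromere side, the 31 tested genes between KMT5C and the cluster had a median of -0.11, with 5 of 31 above 0 and 0 called. The KMT5C gene itself lies on this side of the cluster. The sources used here do not say whether strand was used in counting, so reads of overlapping and antisense genes may not be told apart.

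Other zinc finger genes of chromosome 19 shifted in part. The 196 tested zinc finger genes of the chromosome outside the list include some near the cluster that were also counted above, so these sets overlap. Over the 196 the median was 0.08, with 124 above 0 (63.3%), 9 called higher (4.59%) and 1 lower. The 9 were ZNF317, ZNF561, ZNF562, ZNF440, ZNF439, ZNF69, ZNF763, ZNF91 and ZNF675, and the 1 called lower was ZNF577 (log2 fold change -0.42, SE 0.090). ZNF763 had the largest value, with 2.23 ± 0.466 CPM in the KMT5C tumours and 1.18 ± 0.151 CPM in the CTRL tumours (SD, n = 5 each), a log2 fold change of 0.91 (SE 0.18). The tested protein-coding genes of the chromosome were also cut into 10 blocks in order. In the third block, on the short arm, 25 zinc finger genes had a median of 0.28, near that of the cluster, and 32 of the sixth block had -0.03. The last block holds the 38 tested members, and there the 22 other zinc finger genes had a median of -0.003 and the 38 remaining genes -0.02. In the first block, 94 genes without a zinc finger symbol had 0.22. Over 299 tested zinc finger genes on other chromosomes the median was 0.01, with 159 above 0, 0 called higher and 6 lower. All genes of chromosome 19 that are no members, the other zinc finger genes included, had a median of 0.02 over 1156 tested. The difference between these sets was not tested. A shift in the same direction was seen in some other groups of chromosome 19 genes and not in others, so the shift is not called particular to the cluster.

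**Figure D4:**
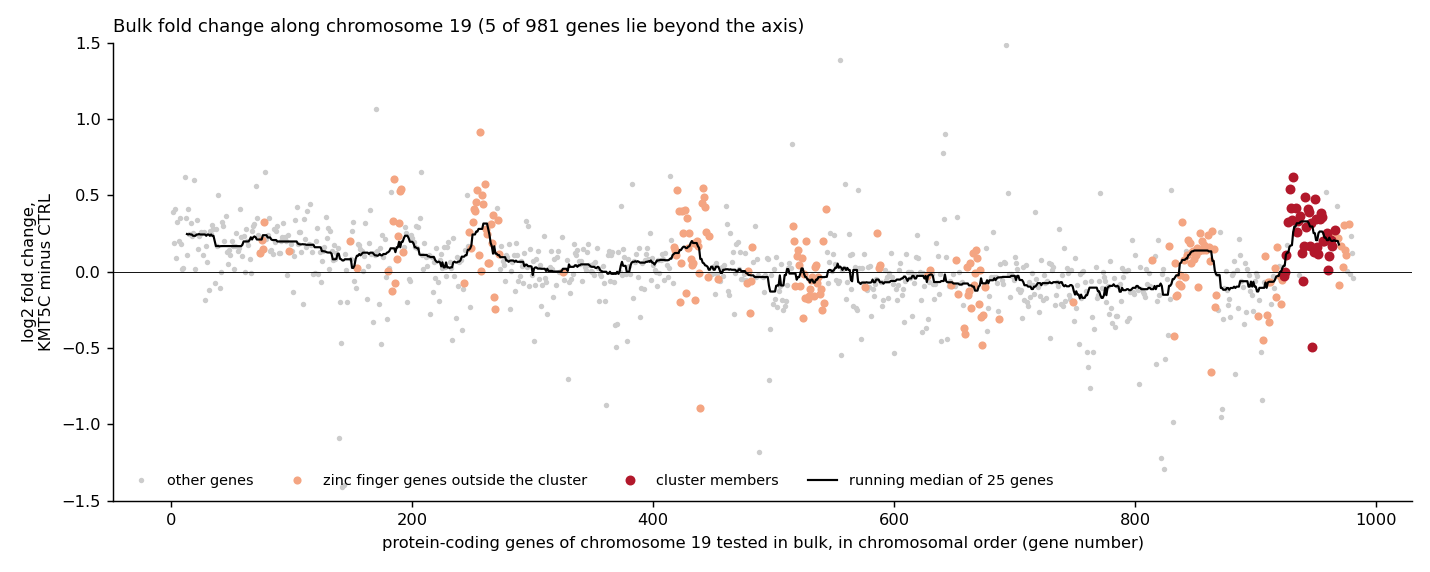
Bulk log2 fold change, KMT5C minus CTRL, of 981 protein-coding genes of chromosome 19 in chromosomal order, with cluster members in red, other zinc finger genes in orange, other genes in grey and the running median of 25 genes in black. The cluster members at the right end have a median of 0.27, and humps of zinc finger genes also lie above 0 towards the left, while 5 genes lie beyond the axis.

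Genes of the machinery that KRAB proteins use had no call. Of 29 listed genes, 26 were tested, with a median log2 fold change of 0.00, 13 above 0 and 0 called in either direction. SETDB1 averaged 27.7 ± 1.59 CPM in the KMT5C tumours and 29.4 ± 2.09 CPM in the CTRL tumours (SD, n = 5 each), a log2 fold change of -0.09 (SE 0.074). CHD3, a remodeller of the NuRD complex, is like SETDB1 named here after its values were seen. It was the 1 gene of the 26 with separate arms, where 3.26% of all genes lay lower with separate arms. CHD3 averaged 225.4 ± 14.2 CPM in the KMT5C tumours and 267.0 ± 11.3 CPM in the CTRL tumours (log2 fold change -0.24, SE 0.065), and was not called. Of 6 listed genes of the H4 lysine 20 pathway, KMT5C was called and the other 5 were not.

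The single-cell tumours give the cluster in other samples and under another transgene, RKIP, an inhibitor of the RAF-MEK-ERK cascade. The tumours held 266, 274 and 256 cells (RKIP 1, 2 and 3) and 247, 267 and 258 cells (CTRL 1, 2 and 3). Tumours whose cell names share an ending carry the same number here and were taken as a pair, since the labels describe both arms in each replicate experiment but do not name the endings. The transgene row of the table, rat Pebp1, was at 11.9, 205.2 and 126.0 CPM in the RKIP tumours, against 0, 0.608 and 0.295 CPM in the CTRL tumours. Its difference of 8.64 on the log2 scale (SE 0.39) had an adjusted p of 0.00377 by edgeR, and it was the 1 gene called of 14528 tested (0.00688%). Replicate 1 stood apart in both arms, with a median of 3305 genes per cell in RKIP 1 and 3130 in CTRL 1, where the other 4 tumours had medians from 4361 to 4954, although its median counts per cell were the highest. CTRL cells were all from 10 columns of the chip and RKIP cells from the other 10, so that the side of the chip and the arm cannot be told apart. None of the 13 muscle markers is in the single-cell table.

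In single cells the cluster showed no common direction. The median log2 fold change of the 36 members was 0.06, with 19 of 36 above 0 (52.8%, where 50.3% of all genes tested were above 0), and 0 members were called at an edgeR adjusted p under 0.05, the smallest adjusted p being 0.973. At an unadjusted p under 0.05 there was 1 member, ZNF417, lower in the RKIP tumours, where 1.8% of all genes were lower and 2.2% higher (4.01% in either direction). With DESeq2, 0 members were called, and at an unadjusted p under 0.05 there were 3 higher and 1 lower, where 3.69% of all genes were higher and 3.03% lower. Without replicate 1 the median was 0.13 with 20 of 36 above 0 and 0 called, and at an unadjusted p under 0.05 there were 3 higher and 3 lower, where 3.1% of all genes were higher and 2.54% lower. The median was 0.21 without replicate 2 (22 of 36 above 0), -0.013 without replicate 3 (18 of 36) and -0.0045 with no replicate block (17 of 36), with 0 called in each. Thinned to 20000 counts per cell, the median over 32 tested members was -0.18 with 12 above 0. The error was large, with a median SE of 0.81 over the members in single cells and 0.12 in bulk, so that a shift of the size seen in bulk was not detectable for a single member here. Over the 35 members in both fits, 17 were higher in both comparisons, and Pearson's r between the fold changes was -0.07 (Spearman's rho -0.05) across genes, which are not independent replicates.

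Few cells had a count for any 1 member. Across all 1568 cells used, the share of cells with a count ran from 1.72% (ZNF547) to 44.5% (ZSCAN18), with a median of 5.93%, and the cell with most counts held a median of 35.9% of a tumour's counts for a member. A cell held on average 1.91, 3.24 and 4.25 members in RKIP 1, 2 and 3, against 1.76, 3.44 and 3.84 in CTRL 1, 2 and 3. Thinned to 20000 counts, the means were 1.09, 1.88 and 2.38 in the RKIP tumours, against 1.03, 2.12 and 2.13 in the CTRL tumours. Replicate 1 was lowest in both arms and the arms overlapped. The summed level of the 36 members was 240.6, 272.5 and 330.8 CPM in the RKIP tumours, against 250.6, 272.9 and 293.6 CPM in the CTRL tumours. Levels of this table are not set against those of the bulk table, which was scaled separately and made by another chemistry.

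ZSCAN18 was the member seen in most cells. It had a count in 27.8%, 51.1% and 62.5% of the cells of the RKIP tumours, against 31.2%, 41.9% and 52.3% in the CTRL tumours. Its level was 65.3, 61.7 and 65.9 CPM in the RKIP tumours, against 63.3, 38.5 and 42.3 CPM in the CTRL tumours (a log2 fold change of 0.45, SE 0.22). Its adjusted p by edgeR was 0.973, with higher values in all 3 pairs, but CTRL 1 lay within the RKIP range. Of the 36 members, 7 were higher and 3 lower in all 3 pairs, so such an order was not rare among them. Without replicate 1 its log2 fold change was 0.66 (SE 0.23) and it was still not called. ZNF274 was at 19.7, 16.3 and 40.9 CPM in the RKIP tumours, against 32.9, 31.9 and 23.7 CPM in the CTRL tumours (log2 fold change -0.32, SE 0.41). ZNF544 was at 20.4, 21.7 and 25.5 CPM in the RKIP tumours, against 23.0, 21.5 and 33.5 CPM in the CTRL tumours (log2 fold change -0.18, SE 0.27). Both genes had overlapping arms.

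The 4 members with the largest fold changes in single cells rested on few cells. ZNF671 was at 6.48, 1.91 and 4.63 CPM in the RKIP tumours, against 0.0695, 1.27 and 1.10 CPM in the CTRL tumours (a log2 fold change of 2.65, SE 1.37). Its adjusted p by edgeR was 0.973. The arms did not overlap, but in CTRL 1 the value was 2 counts in 2 of 247 cells, and without replicate 1 the log2 fold change was 1.34 (SE 0.89). ZNF772 also had separate arms, at 0.900, 1.51 and 1.19 CPM in the RKIP tumours, against 0.139, 0.304 and 0.700 CPM in the CTRL tumours (log2 fold change 1.87, SE 0.84), on 4 to 34 counts per tumour. Arms higher without overlap were found for these 2 members of 36, where 4.43% of all genes were so in the RKIP tumours and 4.47% in the other direction. ZNF543 was at 3.27, 5.07 and 4.25 CPM in the RKIP tumours, against 0.0347, 1.52 and 4.79 CPM in the CTRL tumours (log2 fold change 2.12, SE 1.39), and CTRL 1 held 1 count. Without replicate 1 its log2 fold change was 0.76 (SE 0.82). ZNF417 was at 0.0900, 1.41 and 3.79 CPM in the RKIP tumours, against 0.347, 4.25 and 12.5 CPM in the CTRL tumours (log2 fold change -1.72, SE 0.67). It was 1 of 3 members lower in all 3 pairs, where 7 members were higher in all 3. In CTRL 3, 1 cell held 264 of the 339 counts (77.9%).

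Members called or separate in bulk went different ways in single cells, with no call among them. ZNF547 was at 0.570, 0.653 and 0.456 CPM in the RKIP tumours, against 0, 2.38 and 3.02 CPM in the CTRL tumours, on 0 to 82 counts per tumour. Its share of cells in CTRL 1, 0 of 247, allows a share of up to 1.48% (exact Clopper-Pearson, 95%), and such intervals cover counting error only. ZNF550 was at 0.210, 5.07 and 3.72 CPM in the RKIP tumours, against 0.521, 3.19 and 2.21 CPM in the CTRL tumours (log2 fold change 0.11, SE 0.88). ZNF134 was at 9.72, 14.6 and 18.9 CPM in the RKIP tumours, against 23.3, 15.2 and 19.2 CPM in the CTRL tumours (log2 fold change -0.44, SE 0.39), lower in all 3 pairs. ZNF776 was at 1.68, 4.87 and 9.02 CPM in the RKIP tumours, against 5.18, 5.06 and 4.82 CPM in the CTRL tumours (log2 fold change -0.24, SE 0.72). ZNF304 was at 4.14, 4.42 and 13.0 CPM in the RKIP tumours, against 4.86, 4.10 and 8.07 CPM in the CTRL tumours (log2 fold change 0.19, SE 0.51). For ZSCAN22 the values were 9.60, 5.72 and 4.28 CPM in the RKIP tumours, against 3.72, 4.05 and 7.81 CPM in the CTRL tumours (log2 fold change 0.34, SE 0.65). All of these arms overlapped. ZNF8, measured in single cells only, was at 3.48, 5.12 and 8.98 CPM in the RKIP tumours, against 2.54, 5.47 and 3.17 CPM in the CTRL tumours (log2 fold change 0.62, SE 0.64).

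**Figure D5:**
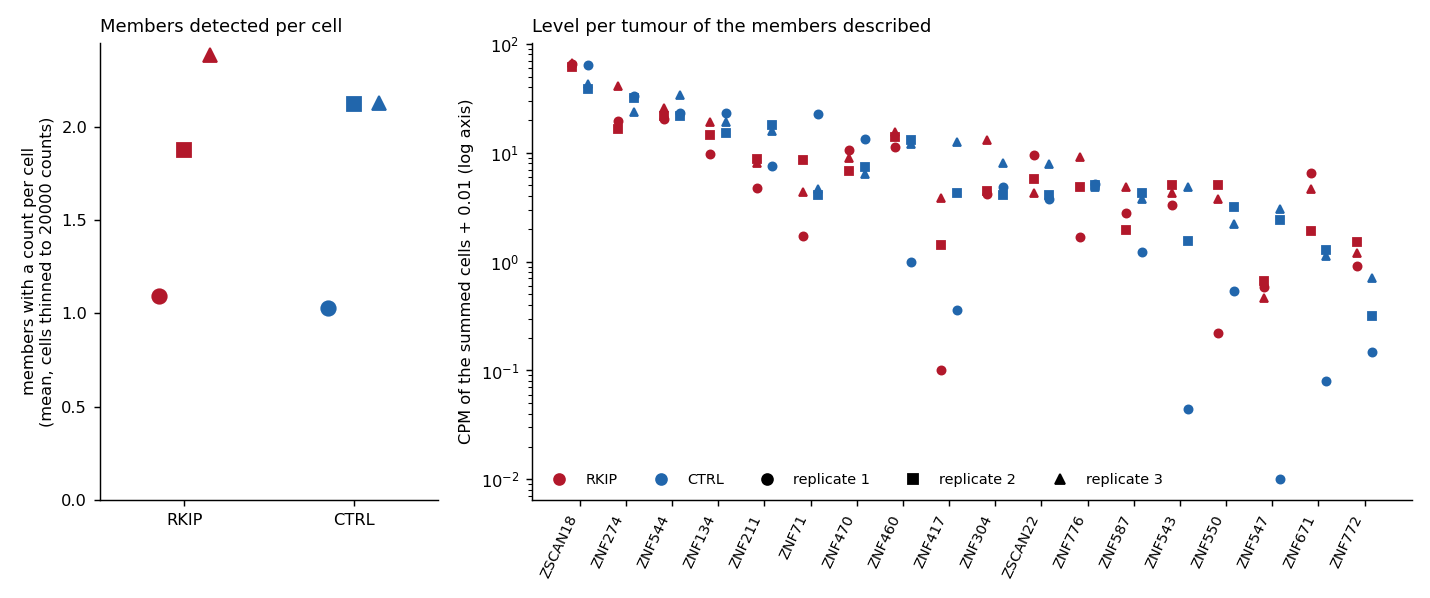
Left, mean number of members with a count per cell, cells thinned to 20000 counts, in each single-cell tumour. Right, CPM + 0.01 of the summed cells (log axis) for 18 described members, with RKIP in red at left, CTRL in blue at right and the marker shape giving the replicate, where replicate 1 (circles) is often the lowest.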

How the data were processed

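RNA was measured by sequencing in 10 bulk tumours and in the cells of 6 single-cell tumours. The deposited values are counts per gene that the authors made with Trim Galore, STAR and featureCounts, per the submitters' processing notes, which name hg38 and hg19 without a role. Versions, strand setting, use of molecular identifiers and removal of mouse reads are not stated there. Members and lists were chosen with earlier results of these data known. Named members follow a rule on separate arms, largest differences, highest levels and known roles.

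Bulk counts were fitted with edgeR 4.0.16 (R 4.3.3; filterByExpr, TMM factors, robust quasi-likelihood test, Benjamini-Hochberg adjustment over all genes, threshold 0.05). Single-cell counts were summed per tumour over cells with at least 1000 genes (1 of 1569 cells left out) and fitted the same way with the replicate experiment as a block. The labels describe both arms in each replicate experiment, and tumours were paired and numbered by endings of cell names, which the labels do not name. Deviations of paired tumours correlated at 0.16, 0.04 and 0.16. Thinning to 20000 counts per cell left out 87 cells. Intervals are exact binomial at 95% and cover counting error only. The scripts were tested on simulated counts. Labels do not say whether tumours came from separate cultures, and p-values measure the spread between tumours. Alternatives were DESeq2 1.42.0, RLE factors, TMM without chromosome 19, no filter, thinning, no block, leaving out each library and, added after seeing the data, a muscle covariate. Gene order, strand and exon length came from GENCODE 29, promoters from RefSeq (GRCh38.p14).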

Additional observations from a re-analysis of the deposited data

Results flagged for a closer look

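Of 42 groups of 5 bulk tumours examined, 2 held a tumour far from the other 4, with a gap above 0.71 of the range of its arm; chance alone flags about 1 group in 20. Both concern KMT5C tumour 823. ZNF274 was at 75.8 CPM in that tumour, the lowest of its arm, where the other 4 KMT5C tumours lay between 83.5 and 86.4 CPM and the CTRL tumours between 67.0 and 77.0 CPM. The mean over the 38 members was 0.0927 in that tumour, on the log2 scale relative to the CTRL mean, where the other 4 KMT5C tumours lay between 0.25 and 0.31 and the CTRL tumours between -0.16 and 0.13. The same tumour was also lowest of its arm for 34.1% of all genes tested. Its mean was also the lowest of the arm over zinc finger genes elsewhere on chromosome 19 (-0.083) and on other chromosomes (-0.16).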

How the results depend on the processing

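In bulk, the median over the members was between 0.21 and 0.30 when each tumour was left out in turn and between 0.26 and 0.32 under the other alternatives. The number of members called was less stable. From 4, it became 10 with DESeq2, 7 with no low-count filter and 0 with the muscle covariate, and ranged from 0 to 9 with 1 tumour left out. Over all genes, 531 calls became 1097 with DESeq2, 801 with no filter and 20 with the covariate, and ranged from 337 to 681 with 1 tumour left out. The causes were not tested, and the covariate fit cannot tell muscle level and arm apart.

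In bulk, 32 of 38 members were above 0 with the muscle covariate, against 34 without it. Of the members described in bulk, ZNF71, ZNF470, ZNF773 and ZSCAN18 changed sign under at least 1 alternative. ZNF71 was at 0.013 with DESeq2, 0.0088 with RLE factors and 0.0023 with TMM factors without chromosome 19, and ranged from -0.041 to 0.074 with 1 tumour left out. With the muscle covariate ZNF470 was at 0.14, ZNF773 at 0.45 and ZSCAN18 at -0.038. With 1 tumour left out, they ranged from -0.075 to 0.024, from -0.17 to 0.083 and from -0.019 to 0.048, in that order.

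In single cells, 0 members were called under every alternative run. Over all genes, 1 call became 60 with DESeq2 and 0 with no replicate block, and ranged from 0 to 1 with 1 replicate left out. Without the block, whose pairing by endings of cell names the labels do not state, ZNF470 was at -0.042 and ZNF776 at 0.047, and no member's call changed. After thinning, ZNF470 was at -0.093, ZNF550 at -0.18, ZNF134 at 0.14, ZNF587 at -0.099 and ZSCAN22 at -0.32. Leaving out 1 replicate gave -1.90 to 0.48 for ZNF71, -0.84 to 0.43 for ZNF776, -0.36 to 0.79 for ZNF587, -0.19 to 0.94 for ZSCAN22, -2.29 to 1.05 for ZNF547, -0.26 to 0.71 for ZNF550, -0.85 to 0.024 for ZNF274, -0.23 to 0.17 for ZNF470 and -0.063 to 0.41 for ZNF304. A median of 5.93% of cells held a count of a given member, and the part of this in the changes was not tested.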
